A study of Mus musculus with 32 samples.

Results

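Adenosine signalling genes were followed in the frontal cortex (FCtx) of ethanol-treated and control mice. They are 7 genes chosen by symbol, namely the receptors Adora1 and Adora2b, the adenosine-forming enzyme Nt5e, the transporters Slc29a1 and Slc29a2, and the adenosine-removing enzymes Adk and Ada. All 12 probes that carry these symbols were taken, of 25697 probes for 18138 gene symbols on the array. The questions were whether their messenger RNA differed between ethanol-treated mice and controls, and whether a difference was seen on each set of chips and by each probe of a gene.

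Adenosine is released by brain cells or formed outside them from ATP, and it dampens neuronal firing and transmitter release through the A1 receptor. Its level outside the cell is set by enzymes that form it, by equilibrative transporters that let it cross the membrane in either direction, and by adenosine kinase, which in the adult brain sits mainly in astrocytes and draws adenosine inward by phosphorylating it. Ethanol is known to block the transporter encoded by Slc29a1, and adenosine receptors are studied for their part in intoxication, sleepiness and drinking.

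The arrays came from 32 female mice labelled C57BL/6J x FVB/NJ F1, 20 ethanol-treated and 12 control, with 1 Illumina MouseRef-8 v2.0 array per mouse. Ethanol-treated mice had voluntary access to 20% ethanol in a drinking in the dark procedure over 20 days, whereas controls were untreated. By the Methods, the mice were killed 20 hours after the last drinking session. The Discussion names a longer interval and adds that the mice could have been in acute withdrawal. The Methods name reciprocal crosses of both strains while the labels name 1 direction, and the age at death was not given in the sources used here. The tissue was the dorsal part of a rostral coronal section, which spans several cortical areas, so that fewer cells of a type and less RNA per cell cannot be told apart. Chips 1 and 2 each held 8 ethanol-treated mice, chip 4 held 8 controls, and chip 3 held 4 ethanol-treated mice at odd positions (A, C, E, G) and 4 controls at even positions (B, D, F, H). On chip 3, treatment and position cannot be told apart, and between the other chips treatment and chip cannot be told apart. On every chip the odd positions held the lower mouse numbers, so position and mouse number cannot be told apart either. Each mouse is a separate sample.

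Between 10637 and 11544 probes were detected per array (detection p-value below 0.01) on 31 arrays, and 9480 on that of control C66 on chip 4. Correlations between arrays ranged from 0.974 to 0.995. Of the neuronal markers 5 of 8 genes were detected well enough to be tested, of the astrocyte markers 9 of 10, of the oligodendrocyte markers 9 of 9 and of the striatal markers 5 of 10. Levels are given as log2 values after variance stabilization and quantile normalization, a scale that understates the change of dim probes, and differences are ethanol minus control unless stated.

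Detection separated the genes before any comparison of the groups. A probe was tested when it was detected on at least 24 of the 32 arrays, which 7 of the 12 probes and 5 of the 7 genes were, against 10187 of 25697 probes overall. Both probes of Adk, the probe of Adora2b, that of Slc29a1 and 2 of the 3 probes of Adora1 were detected on all 32 arrays, and 1 of the 2 Nt5e probes on 30. Those not tested were the third Adora1 probe (0 arrays), the second Nt5e probe (1), the Slc29a2 probe (13) and both Ada probes (0). The only probe of Snap25, a gene of all neurons, was also detected on 0 arrays, so an undetected probe gives no level for its gene.

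**Figure D1:**
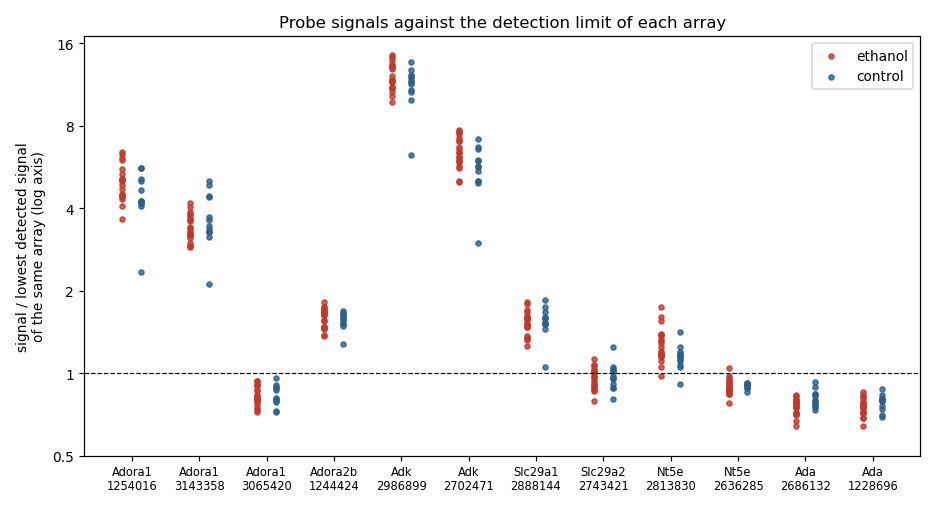
Signal of each of the 12 probes divided by the lowest detected signal of the same array (vertical axis, log scale), with 1 point per mouse, for 20 ethanol-treated mice (red) and 12 controls (blue). The dashed line marks the lowest detected signal of an array. Both Ada probes and the third Adora1 probe lie below it on all arrays, the Slc29a2 probe straddles it, and the Adk probes lie well above it.

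Adora1 and Adk were each read by more than 1 tested probe, and results are given probe by probe, so the last 30 bases of these 50-base probes are shown 5′ to 3′ as the deposited table gives them. The capitals mark the last 12 bases, which 0 other probes of the 25697 hold in that orientation.
Adora1 ILMN_1254016: ccctggctctcaaggaggACCCTATGTCTA
Adora1 ILMN_3143358: gcttctagggtgagtgagGTGGCTCAGCGG
Adora1 ILMN_3065420: tgcatcactttactggggCACATCTTCGCA
Adk ILMN_2986899: ggacttggggcagctgccTAACCCGCAACA
Adk ILMN_2702471: tgatggacgtcatgccttATGTTGATATCC
The Adora1 probes start at base 3332, 5581 and 904 of their transcripts, in this order, and the Adk probes at base 1617 and 663. ILMN_3065420 carries the type code I, used for a single isoform, and ILMN_3143358 the code A, used for all isoforms. The table places Adora1 on chromosome 1, Adk (for ILMN_2986899) on chromosome 14, Slc29a1 on chromosome 17, Slc29a2 on chromosome 19, Nt5e on chromosome 9 and Ada on chromosome 2, and lists none for Adora2b.

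Over the 32 arrays, 0 of the 7 tested probes passed an FDR of 1%, against 8.29% of all probes tested. The unadjusted p-value was below 0.05 for 4 of them, those of Nt5e, both of Adora1 and ILMN_2702471 of Adk, as it was for 31.8% of all tested probes. At a looser threshold, an FDR of 10% and a change of 1.1-fold or more, the Adk probe ILMN_2702471 was higher and the Adora1 probe ILMN_3143358 lower, which makes 2 of 7 probes against 15% overall. The Nt5e probe missed the fold change on this scale (0.12, limma adjusted p = 0.0957). It met the looser threshold on a plain log2 scale (0.14, limma adjusted p = 0.0878) and with normexp (0.27, limma adjusted p = 0.0881), where the share over all probes was not counted. The Adk and Adora1 results depended on the model. With chip as a random block the adjusted p of the Adk probe was 0.142 (limma) and with chip as a fixed block 0.742. There the Adora1 probe still met the looser threshold, with -0.21 (limma adjusted p = 0.0613) and -0.38 (limma adjusted p = 0.0215). The fixed block draws only on the chip with both groups, where treatment and position cannot be told apart. The Adora1 probe missed that threshold with median scaling (-0.083, limma adjusted p = 0.538) and with position as a covariate (-0.11, limma adjusted p = 0.133). The Adk probe met it there (0.24, limma adjusted p = 0.0777, and 0.19, limma adjusted p = 0.00500). With chip as a fixed block and position, neither met it (limma adjusted p = 0.673 for Adk and 0.434 for Adora1). In that model 0.0196% of all tested probes passed an FDR of 1%. Without a block or covariate, the median difference of the 7 probes was 0.064, and that of all tested probes -0.0032. No probe separated the groups without overlap over the 32 arrays (background 0.00982%).

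**Figure D2:**
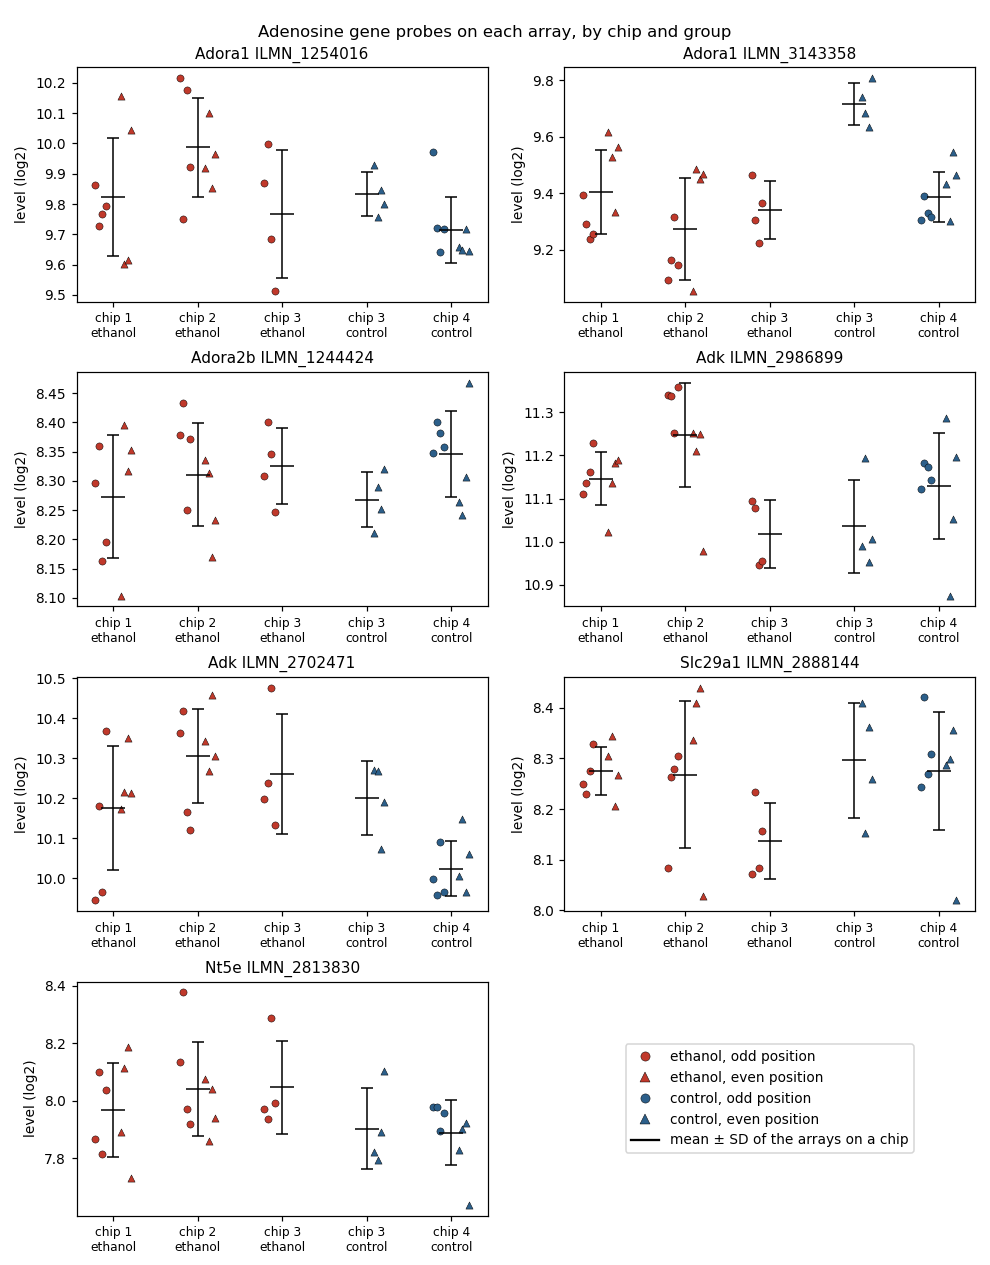
Log2 levels (vertical axes) of the 7 tested probes on each array, by chip and group, with 1 point per mouse, circles for odd and triangles for even positions. Horizontal marks and bars give the mean ± SD of 4 or 8 mice. The 4 controls of chip 3 lie above all other controls for Adora1 ILMN_3143358, and the 8 controls of chip 4 lie low for Adk ILMN_2702471. The share of all probes that do so was not counted.

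The A1 receptor gene Adora1 gave opposite differences at its 2 detected probes. Over the 32 arrays ILMN_1254016 ranged from 9.51 to 10.22 in ethanol-treated mice (median 9.87, n = 20) and from 9.64 to 9.97 in controls (median 9.72, n = 12). The groups overlapped, with 16 of 20 ethanol-treated mice above the control median and a difference of 0.12 ± 0.059 (SE; limma adjusted p = 0.146). At ILMN_3143358 ethanol-treated mice ranged from 9.05 to 9.62 (median 9.32) and controls from 9.30 to 9.81 (median 9.45), with 7 of 20 ethanol-treated mice above the control median. The groups overlapped here too, and the difference was -0.16 ± 0.058 (SE; limma adjusted p = 0.0505).

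On chip 3, the chip that holds both groups, ILMN_3143358 of Adora1 was the 1 probe of 7 that passed an FDR of 1%, against 3.32% of all probes (1.81% lower). Its level was 9.47, 9.30, 9.22 and 9.36 in the ethanol-treated mice A46, A47, A49 and A50, and 9.74, 9.68, 9.64 and 9.81 in the controls C52, C54, C55 and C56. All 4 controls lay above all 4 ethanol-treated mice, and 7.58% of all probes were lower without overlap in this way on chip 3. Adora1 at this probe fell by 0.38 ± 0.066 (SE; limma adjusted p = 0.00230). Without A47 or without A49 the limma adjusted p was 0.0101 and 0.0107, with differences of -0.36 and -0.34. The share of all probes past an FDR of 1% was then 1.53% and 1.4%.

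At this Adora1 probe the controls of chip 3 stood above those of chip 4, a comparison that was not tested. The mean was 9.72 ± 0.074 (SD, n = 4) in the controls of chip 3 and 9.39 ± 0.089 (SD, n = 8) in those of chip 4. The highest value of chip 4, 9.54, lay below the lowest of chip 3, 9.64, and the share of all probes that separate these controls was not counted. The controls of chip 3 were all at even positions, where those of chip 4 had a mean of 9.44 ± 0.10 (SD, n = 4). Ethanol-treated mice had means of 9.40 ± 0.15 (chip 1, n = 8), 9.27 ± 0.18 (chip 2, n = 8) and 9.34 ± 0.10 (chip 3, n = 4). The controls of chip 4 thus lay among the ethanol-treated mice of all 3 chips. The ethanol-treated mice of chips 1 and 2 differed from the controls of chip 4 by -0.048 ± 0.062 (SE; limma adjusted p = 0.612). The difference between both effects was -0.33 ± 0.11 (SE; limma adjusted p = 0.0435), which passes an FDR of 10% with the fold change (1 of 7 probes, background 16.1%) and misses 1%, as did all 7 probes (background 3.45%).

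The same Adora1 probe was lower at odd than at even positions on the chips where treatment did not vary. At ILMN_3143358 the odd minus even difference was -0.22 on chip 1, -0.19 on chip 2 and -0.10 on chip 4. Over these chips it was -0.17 ± 0.047 (SE; limma adjusted p = 0.0180), so that 0 of 7 probes passed an FDR of 1% (background 3.6%) and this one passed 10% with the fold change (background 12.9%). Odd positions are those of the ethanol-treated mice on chip 3. They also held the lower mouse numbers on each chip, so a difference by position may be one by mouse number. With chip as a fixed block and position as a covariate, the ethanol difference of the probe was -0.21 ± 0.089 (SE; limma adjusted p = 0.434). Oligodendrocyte markers, with all 9 genes tested, had a median difference of -0.38 on chip 3, -0.16 between odd and even positions and 0.063 between chips 1 and 2 and chip 4. Their normalized levels were also taken back from log2 to a linear scale and summed, with 1 probe per gene. This sum ran from 21593 to 49062 in ethanol-treated mice and from 19866 to 39883 in controls. Markers of the olfactory bulb (3 of 7 genes tested) and of the meninges (5 of 7) had medians of 0.69 and 0.39 on chip 3 and of 0.36 and 0.19 between odd and even positions. Neuronal markers (5 of 8 genes tested) had medians of -0.035 on chip 3, -0.046 between odd and even positions and 0.094 between chips 1 and 2 and chip 4. Of these, Slc17a7 alone passed an FDR of 1% over the 32 arrays, with -0.26 (background 8.29%). The part of these cells in the Adora1 values was not tested.

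The other detected Adora1 probe, ILMN_1254016, differed in the other direction over the 32 arrays, with a value near 0 on chip 3. On chip 3 its levels were 9.87, 9.999, 9.69 and 9.51 in the ethanol-treated mice A46, A47, A49 and A50, and 9.93, 9.76, 9.85 and 9.80 in the controls C52, C54, C55 and C56. The 4 ethanol-treated mice spanned the range of the controls, and the difference was -0.066 ± 0.086 (SE; limma adjusted p = 0.677). Between chips 1 and 2 and chip 4 it was 0.19 ± 0.068 (SE; limma adjusted p = 0.0427), where the level of 14 of 16 ethanol-treated mice exceeded the control median. The test of the difference between both effects gave -0.26 ± 0.12 (SE; limma adjusted p = 0.185). Both Adora1 probes, 2 of the 7, had an unadjusted p below 0.05 in that test, as had 25.7% of all tested probes.

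Whether both Adora1 probes changed unequally was tested within each array, as ILMN_1254016 minus ILMN_3143358. This value averaged 0.54 ± 0.24 over the 20 ethanol-treated mice (SD) and 0.26 ± 0.17 over the 12 controls, and the groups differed by 0.28 (2-sided permutation test with 100000 resamples, p = 0.00108, adjusted p = 0.00648 over 6 comparisons of 2 genes). On chip 3 the difference was 0.31 (exact permutation p = 0.0857, adjusted p = 0.129, where 4 against 4 allows no p below 0.0286). Between chips 1 and 2 and chip 4, which share no array with chip 3, it was 0.24 (exact permutation p = 0.0214, adjusted p = 0.0642). The value was higher in ethanol-treated mice in both sets of arrays, and neither set passed on its own. In linear models chosen after seeing the data, the Adora1 probe difference over the 32 arrays was 0.24 with position as a covariate (95% interval 0.076 to 0.40). With chip as a fixed block, which draws only on chip 3, it was 0.31 (95% interval 0.041 to 0.58). With chip as a fixed block and position it was 0.11 (95% interval -0.16 to 0.39). An unequal change of the probes was therefore not shown once chip and position were both taken into account. Across the 32 arrays the levels of the probes had a Pearson r of -0.0092, and of 0.30 after centring within each chip and position, where arrays share a chip and its scaling.

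**Figure D3:**
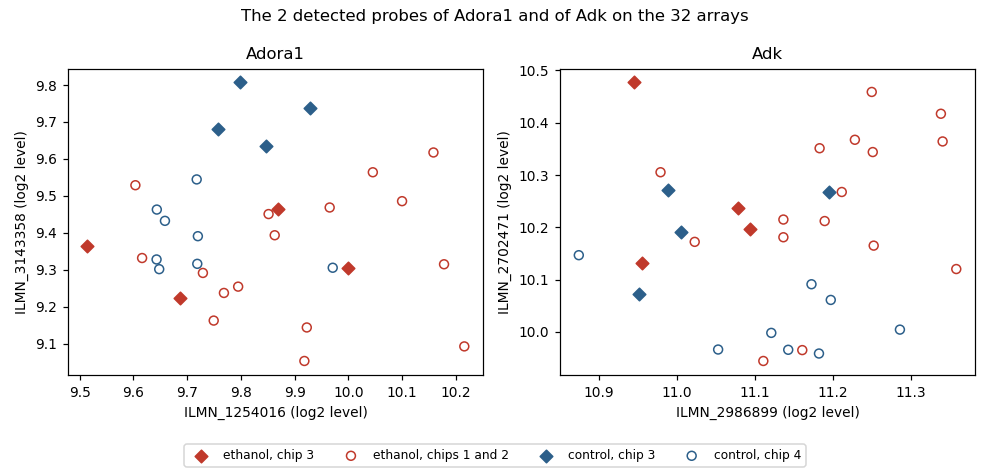
Log2 levels of the 2 detected probes of Adora1 (left) and of Adk (right) against each other, with 1 point per mouse, filled diamonds for chip 3 and open circles for the other chips, red for ethanol-treated mice and blue for controls. For Adora1 the 4 controls of chip 3 form the top of the plot, and for Adk the 8 controls of chip 4 lie along the bottom.

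The third Adora1 probe, ILMN_3065420, had signals from 126 to 187 and was detected on 0 arrays, so the isoform it reads could not be compared. The A2B receptor gene Adora2b, which couples to adenylyl cyclase stimulation and responds to high adenosine, was detected on all 32 arrays. Adora2b ranged from 8.10 to 8.43 in ethanol-treated mice (median 8.31) and from 8.21 to 8.47 in controls (median 8.31). The groups lay over each other, with a difference of -0.021 (95% interval -0.090 to 0.047; limma adjusted p = 0.709). It was 0.057 on chip 3 (limma adjusted p = 0.592) and -0.054 between chips 1 and 2 and chip 4 (limma adjusted p = 0.384). The probes of the other 2 adenosine receptors, Adora2a and Adora3, were detected on 0 arrays.

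Nt5e encodes the ecto-5'-nucleotidase CD73, which forms adenosine from AMP at the cell surface. Its probe ILMN_2813830 was dim, with signals from 146 to 367, and was detected in 19 of 20 ethanol-treated mice and 11 of 12 controls. Nt5e ranged from 7.73 to 8.38 in ethanol-treated mice (median 7.98) and from 7.64 to 8.10 in controls (median 7.90). The groups overlapped, 15 of 20 ethanol-treated mice lay above the control median, and the difference was 0.12 ± 0.051 (SE; limma adjusted p = 0.0957). The lowest value was that of control C66, where the probe was not detected, and without that array the difference was 0.096 ± 0.050 (SE; limma adjusted p = 0.200).

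The Nt5e difference passed on neither set of chips. On chip 3 the levels were 7.97, 7.94, 8.29 and 7.99 in ethanol-treated mice and 7.82, 7.80, 7.89 and 8.10 in controls, in the order of their numbers. All 4 ethanol-treated mice lay above the control median, the highest control lay above 3 of them, and the difference was 0.14 ± 0.084 (SE; limma adjusted p = 0.292). Between chips 1 and 2 and chip 4 it was 0.12 ± 0.061 (SE; limma adjusted p = 0.168), and the effects of Nt5e differed by 0.027 (95% interval -0.21 to 0.26; limma adjusted p = 0.911). Over the 32 arrays the Nt5e difference was 0.27 with normexp background correction (limma adjusted p = 0.0881) and 0.068 with chip as a fixed block and position (limma adjusted p = 0.894). The second Nt5e probe was detected on 1 array, that of A46.

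Slc29a1 and Slc29a2 encode the equilibrative nucleoside transporters ENT1 and ENT2, which carry adenosine across the plasma membrane. Slc29a1 ranged from 8.03 to 8.44 in ethanol-treated mice (median 8.27) and from 8.02 to 8.42 in controls (median 8.29). The groups lay over each other, with a difference of -0.038 (95% interval -0.12 to 0.046; limma adjusted p = 0.565). Without C66, the lowest control, it was -0.062 (limma adjusted p = 0.308).

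On chip 3 Slc29a1 was 8.07, 8.23, 8.08 and 8.16 in the ethanol-treated mice and 8.41, 8.15, 8.36 and 8.26 in the controls, in the order of their numbers. All 4 ethanol-treated mice lay below the control median, with an overlap through control C54, and the difference was -0.16 ± 0.068 (SE; limma p = 0.0322, adjusted p = 0.145). Between chips 1 and 2 and chip 4 it was -0.0039 ± 0.048 (SE; limma adjusted p = 0.965), and the test of the difference between both effects gave a limma adjusted p of 0.283. Slc29a2 was at the limit of detection, in 8 of 20 ethanol-treated mice and 5 of 12 controls, with signals from 141 to 222. With every probe of the array tested, its difference was -0.0089 ± 0.038 (SE; limma adjusted p = 0.942).

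Adk encodes adenosine kinase, and 1 of its 2 probes was the highest-ranked adenosine gene probe over the 32 arrays. ILMN_2702471 ranged from 9.94 to 10.48 in ethanol-treated mice (median 10.23) and from 9.96 to 10.27 in controls (median 10.07). The groups overlapped, 18 of 20 ethanol-treated mice lay above the control median, and the difference was 0.16 ± 0.048 (SE; limma adjusted p = 0.0158), or 1.12-fold. Without C66 it was 0.16 (limma adjusted p = 0.0261).

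The controls of chip 4 stood lowest for this Adk probe. Their mean was 10.02 ± 0.069 (SD, n = 8), against 10.20 ± 0.093 (SD, n = 4) in the controls of chip 3. Ethanol-treated mice had means of 10.18 ± 0.16 on chip 1 (SD, n = 8), 10.31 ± 0.12 on chip 2 (SD, n = 8) and 10.26 ± 0.15 on chip 3 (SD, n = 4). The controls of chip 3 thus lay among the means of the ethanol-treated mice. Between chips 1 and 2 and chip 4, Adk at ILMN_2702471 was the 1 probe of 7 that passed an FDR of 1%, higher in ethanol-treated mice by 0.22 ± 0.054 (SE; limma adjusted p = 0.00451), against 5.91% of all probes called higher and 11.8% in either direction. With the probe ILMN_1254016 of Adora1, 2 of 7 passed the FDR of 10% with the fold change (background 23.9%).

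On chip 3 Adk at ILMN_2702471 was 10.20, 10.24, 10.48 and 10.13 in the ethanol-treated mice A46, A47, A49 and A50, and 10.27, 10.27, 10.07 and 10.19 in the controls C52, C54, C55 and C56. The groups overlapped, and A49 was the 1 ethanol-treated mouse above all controls. The difference was 0.060 (95% interval -0.10 to 0.22; limma adjusted p = 0.664), an interval that holds the value between the chips. The test of the difference between both effects gave -0.16 ± 0.098 (SE; limma adjusted p = 0.325).

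The brighter Adk probe, ILMN_2986899, differed less. It ranged from 10.95 to 11.36 in ethanol-treated mice (median 11.17) and from 10.87 to 11.29 in controls (median 11.13), with a difference of 0.064 ± 0.045 (SE; limma adjusted p = 0.339). It was -0.017 on chip 3 (limma adjusted p = 0.906) and 0.068 between chips 1 and 2 and chip 4 (limma adjusted p = 0.335). Within arrays, ILMN_2986899 minus ILMN_2702471 averaged 0.92 ± 0.18 over the 20 ethanol-treated mice (SD) and 1.01 ± 0.19 over the 12 controls. This difference of -0.098 gave a permutation p of 0.149 (adjusted p = 0.179), and between chips 1 and 2 and chip 4 it was -0.15 (exact permutation p = 0.0407, adjusted p = 0.0814). An unequal change of the Adk probes was therefore not shown. Astrocyte markers, from the cells that hold most adenosine kinase, had 9 of 10 genes tested. Their median difference was 0.014 over the 32 arrays, 0.12 on chip 3 and -0.0055 between chips 1 and 2 and chip 4. The sum of their normalized levels on a linear scale ran from 29461 to 35624 in ethanol-treated mice and from 28375 to 37690 in controls. Aqp4, the water channel of astrocyte endfeet, was the 1 astrocyte marker that passed an FDR of 1% over the 32 arrays, higher by 0.52 (background 8.29%). The part of astrocytes in the Adk values was not tested.

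Ada encodes adenosine deaminase, which turns adenosine into inosine. Its probes gave signals from 128 to 178 (ILMN_2686132) and from 126 to 169 (ILMN_1228696) and were detected on 0 arrays in either group. No difference of Ada could be measured at this signal.

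**Figure D4:**
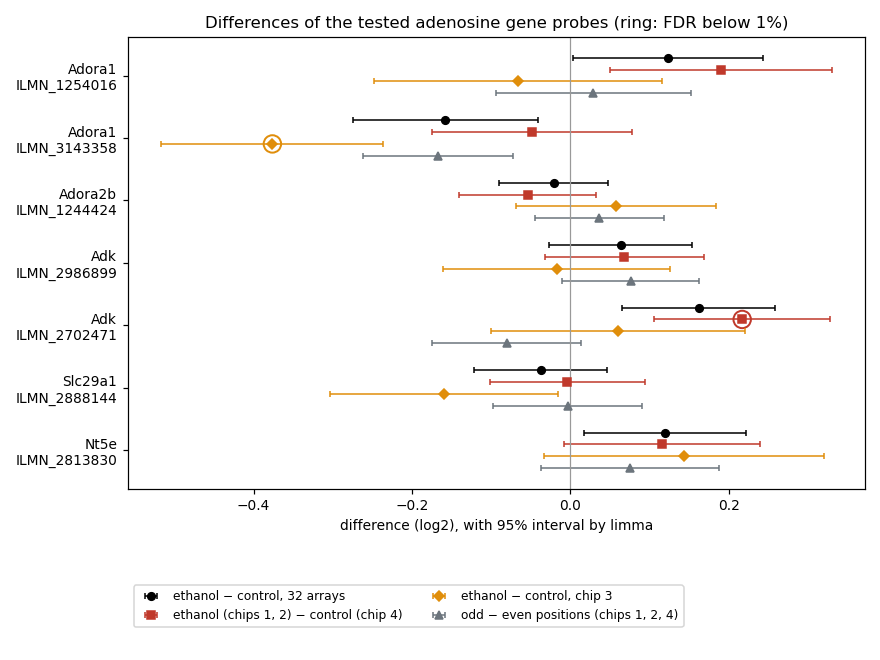
Log2 differences of the 7 tested probes (horizontal axis) with their 95% limma intervals, for ethanol minus control over 32 arrays (black), chip 3 (orange) and chips 1 and 2 against chip 4 (red), and for odd minus even positions of chips 1, 2 and 4 (grey). Rings mark an FDR below 1%, which Adora1 ILMN_3143358 had on chip 3 and Adk ILMN_2702471 had between the chips.

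Among themselves the adenosine genes varied with little order across the 32 arrays. The highest correlation of the 21 pairs of tested probes was that of Adk ILMN_2702471 with Nt5e (Pearson r = 0.56, and 0.57 after centring within chip and position). After the same centring, Adora1 ILMN_1254016 and Nt5e had the lowest, with an r of -0.50. These are descriptions over arrays that share chips and scaling.

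The genes whose centred levels followed each member most closely, over 32 arrays in 8 sets of 4, were found for the brightest tested probe of each. For Adora1 (ILMN_1254016) they were Klf9 (r = 0.84), Sbds (0.83) and 9130213B05Rik (0.73), and for Adora2b Mfge8 (0.73), Rfng (0.73) and Zfp251 (0.72). For Nt5e they were Trim28 (r = 0.77), Nrip3 (0.76) and Cbln1 (0.72). Slc29a1 was followed by Tm2d2 (r = 0.79), Stambp (0.69) and Pcsk7 (0.65), and Adk (ILMN_2986899) by Bcas2 (0.67), Dctn4 (0.63) and LOC100046457 (0.62). These are the highest values among all tested probes of other genes, picked for being highest, and none was tested.

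Of 43 other genes listed for adenosine formation, transport, reception and removal, 36 were on the array and 17 were tested, by 24 probes. Over the 32 arrays 1 probe passed an FDR of 1% as higher and 0 as lower (background 8.29% in either direction), with differences from -0.14 to 0.33 and a median of -0.020. The higher one was Ahcyl1, a relative of S-adenosylhomocysteine hydrolase best known as a partner of the inositol trisphosphate receptor, with 0.33 ± 0.060 (SE; limma adjusted p = 2.8e-04). With chip as a fixed block it was 0.077 (limma adjusted p = 0.635).

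On chip 3, 0 of these 24 probes passed (background 3.32%), and Ahcyl1 differed by 0.077 ± 0.059 (SE; limma adjusted p = 0.433). Between chips 1 and 2 and chip 4, 2 of 24 passed as higher and 2 as lower (background 11.8% in either direction), named here after their values were seen. Ahcyl1 (0.47, limma adjusted p = 2.2e-06) and Entpd4, a nucleoside diphosphatase of internal membranes (0.16, limma adjusted p = 0.00368), were higher. The purine salvage enzymes Aprt (-0.20, limma adjusted p = 0.00228) and Hprt1 at ILMN_2704499 (-0.20, limma adjusted p = 0.00710) were lower. Another Hprt1 probe, ILMN_2776552, differed in the other direction between these chips. Between odd and even positions 1 of the 24 passed (background 3.6%), Enpp2, which encodes autotaxin (0.23, limma adjusted p = 0.00261).

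**Figure D5:**
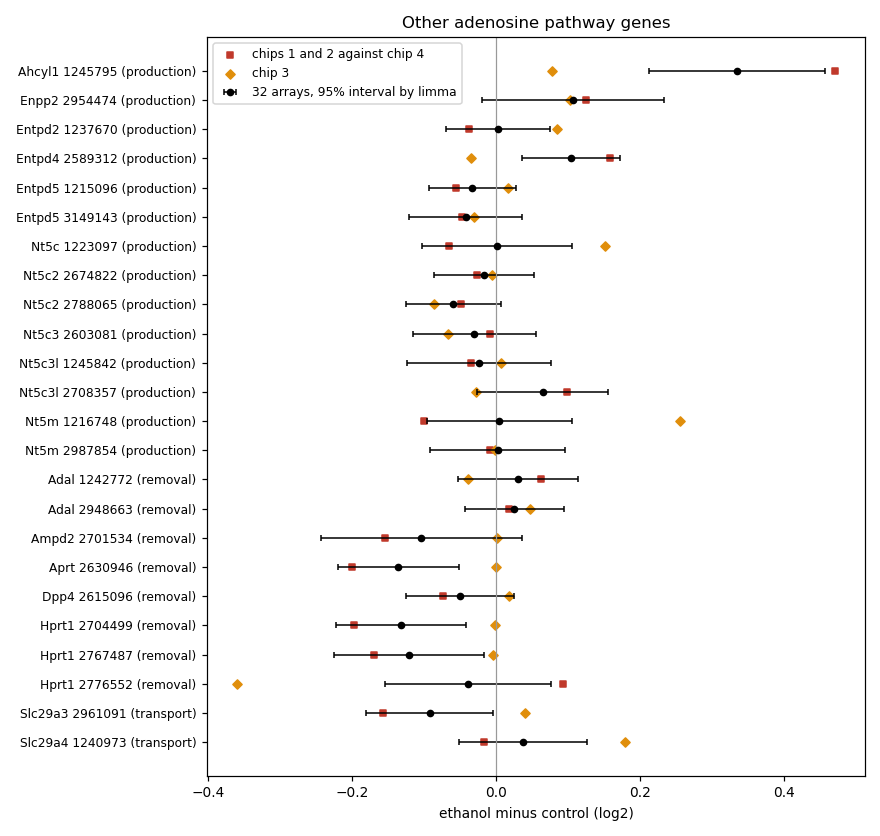
Ethanol minus control differences on the log2 scale (horizontal axis) of the 24 tested probes of other adenosine pathway genes, over 32 arrays with 95% limma intervals (black), on chip 3 (orange) and for chips 1 and 2 against chip 4 (red). Ahcyl1 is the probe farthest to the right over 32 arrays and between chips, and lies near the others on chip 3.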

How the data were processed

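The authors deposited a bead summary table without normalization, in which the intensity is the mean signal of a probe's beads on a linear scale. They also deposited a detection p-value per probe and array and, as other values, the standard error and number of beads. Per the labels and Methods, lumi (variance stabilization, quantile normalization) and limma were applied by the authors, in versions not given in the sources used here. All columns had a sample (0 without). Here a transform after that of lumi was computed from the bead standard errors, then arrays were quantile normalized (R 4.3.3, package data.table, version 1.17.8). A probe entered the comparisons when its detection p-value fell under 0.01 on 24 or more of the 32 arrays (75%). Groups were compared by limma 3.58.1 without covariates, with Benjamini-Hochberg adjustment over the 10187 probes tested. A call is an FDR below 1%, and a looser call one below 10% together with a change of 1.1-fold or more. The same fit was made for chip 3, for chips 1 and 2 against chip 4, for odd against even positions with chip as a block, and for the difference between the chip 3 effect and that between chips. Python 3.11.15 served for the permutation tests (scipy 1.17.1, numpy 2.4.6), the joining of values (pandas 2.3.3) and the plots (matplotlib 3.10.9). The scripts were tested on simulated data. The number of arrays limits the precision.

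All probes of the 7 genes are named, other pathway genes where called, and for likeness the 3 most correlated genes per member. The members and lists were chosen with earlier results of these data known. The genome build of the table's probe coordinates is not stated, so coordinates were not used. Alternatives tried were a plain log2 scale, normexp with an offset of 16, median scaling, no filter on dim probes or one that asks for detection on every array, a fixed or a random block for the chip, odd or even position as a covariate with or without that block, array weights, another threshold, and leaving out single arrays. Linear models of the difference between the Adora1 probes were added after seeing the data.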

Additional observations from a re-analysis of the deposited data

Results flagged for a closer look

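Within the mice of 1 group on 1 chip, 5 of 35 sets of values for the tested adenosine gene probes held a mouse whose gap to the rest was large for the range, where chance marks about 1 in 20 sets. Control C57 was high for Adora1 at ILMN_1254016 (9.97, others on chip 4 from 9.64 to 9.72). Ethanol-treated mouse A45 was low for Adk at ILMN_2986899 (10.98, others on chip 2 from 11.21 to 11.36). Control C66, the array with the fewest probes detected, was low for Slc29a1 (8.02, others from 8.24 to 8.42) and for Nt5e (7.64, others from 7.83 to 7.98). Ethanol-treated mouse A49 was high for Nt5e on chip 3 (8.29, others from 7.94 to 7.99).

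For 2 probes of other pathway genes the ethanol difference on chip 3 departed from that between chips 1 and 2 and chip 4, past an FDR of 1% in the test of the difference itself, which makes 2 of 24 probes against 3.45% of all tested probes. For Ahcyl1 the difference between the effects was -0.39 (limma adjusted p = 0.00659). For Hprt1 at ILMN_2776552 it was -0.45 (limma adjusted p = 0.00671), with -0.36 on chip 3 and 0.092 between the chips, whereas the other 2 Hprt1 probes gave -0.0013 and -0.0036 on chip 3. The 7 adenosine gene probes gave 0 such calls by limma, with an unadjusted p below 0.05 for both Adora1 probes, as for 25.7% of all tested probes.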

How the results depend on the processing

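Of 152 values recomputed under alternatives, 124 kept their direction and their side of the threshold, 15 counts moved, 7 differences reversed, 5 lost a call and 1 gained one. Reversals were all in uncalled differences over 32 arrays: Adora2b with median scaling (0.036), and with chip as a fixed block, alone or with position, Adora2b (0.057 and 0.021), Adk ILMN_2986899 (-0.017 and -0.093) and Adora1 ILMN_1254016 (-0.066 and -0.095). With position as a covariate Adk ILMN_2702471 gained a call (0.19, limma adjusted p = 0.00500), so the count over 32 arrays went from 0 to 1. The share of all tested probes called was then 9.55%, against 8.29% without the covariate. At an FDR of 10% with the fold change, and with no other setting changed, the count over 32 arrays was 2 (background 15%). Between chips it was 2 in place of 1 (background 23.9%). The counts for odd against even positions and for the difference between effects were then 1 in place of 0 (backgrounds 12.9% and 16.1%). The call of Adora1 ILMN_3143358 on chip 3 was lost with normexp (count 0; -0.45, limma adjusted p = 0.0169). There the share of all probes called fell from 3.32% to 0.206%. Leaving out 1 array gave counts from 0 to 1, with 0 without A47 (1.53% of all probes called) or A49 (1.4%). The call of Adk ILMN_2702471 between chips was lost with median scaling (count 0; 0.35, limma adjusted p = 0.0168). There the share of all probes called fell from 11.8% to 5.72%. The difference within arrays between both Adora1 probes, 0.28, no longer passed with chip as a fixed block and position (0.11), among 6 alternatives chosen after seeing the data. Calls among other pathway probes, 1 as reported, were 2 with all probes or with position as a covariate, and 0 with median scaling and with chip as a fixed block, as a random block, or with position. Median scaling moved the median of all probes to 0.047 and the share higher from 48.4% to 71.8%. Over all tested probes the calls over 32 arrays fell from 8.29% to 1.11% with median scaling and to 0.206% with chip as a fixed block. They fell to 0.766% with chip as a random block and to 0.0196% with chip as a fixed block and position. With all probes entered they were 2.51%. Nt5e had no value among probes detected on all arrays. The causes were not tested. The paper calls the controls matched, but the sources used here do not say which control belongs to which ethanol-treated mouse. A paired analysis was therefore not possible. Among the tested probes that of Nt5e had the least signal over background, and the Ada probes, Adora1 ILMN_3065420, Nt5e ILMN_2636285 and Slc29a2 were at or under the detection limit.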
